A study of Mus musculus with 26 samples.

Results

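Primary mouse osteosarcomas were compared with mouse osteoblasts grown in culture, using whole-transcriptome arrays with a single colour. The samples were chosen by their labels: 15 primary osteosarcomas and 3 cultures of osteoblasts, 18 of the 26 arrays of the series. Per the labels, the cultures were primary cells differentiated to osteoblasts in the dish, and the design text calls them wild type. The tumours came from a mouse model and carry the animal or tumour numbers 119, 12, 29, 64, 66, 87, 94, 176, 179, 182, 183, 188, 330, 331 and 353. The labels read here state no genotype, strain, age, sex, driving transgene or tumour site, and no label says that a tumour was sorted or cultured before RNA was taken. The other 8 arrays, 4 of tumour-derived cell lines and 4 of secondary tumours, entered no difference. They entered the shared estimate of spread, the intensity floor, the filter on dim probe sets and the choice of probe set for each gene. Nothing states that the 3 cultures came from separate animals, so p-values measure the spread between these samples.

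Osteosarcoma is a malignant bone tumour whose cells lay down osteoid, the collagen-rich matrix that osteoblasts make and mineralise. Osteoblasts descend from mesenchymal progenitors that can also become cartilage or fat cells, and Wnt, BMP and hedgehog signals together with transcription factors such as Runx2 and Sp7 steer that choice. A tumour is a tissue, with macrophages, vessels and neighbouring muscle among its cells, whereas a culture on plastic holds mainly the cells that attach and grow.

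Levels below are log2 array intensities. A difference is the mean of the tumours minus the mean of the cultures on that scale, so a difference of 1 is a doubling, and its SE and adjusted p come from limma. Dim values were raised to a floor of 3.64, so a level of 3.64 means only that the probe was no brighter than the floor. Values set to the floor do not vary, so the SE and adjusted p of a gene with many of them can be too small. A gene is said to have risen or fallen when it differed by 2-fold or more with an adjusted p below 0.05. Levels of different genes are not compared, because probes differ in brightness.

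The 3 cultures were close to each other (correlation across genes 0.986 to 0.99), and the tumours were less so (0.828 to 0.957). Correlations between a culture and a tumour were 0.749 to 0.845. The spiked-in bacterial control RNAs put the tumours into a pair of sets by the ratio of control bioB to bioC. Set 1 holds tumours 119, 12, 29, 64, 66, 87 and 94 (ratio 0.389 to 0.416), and set 2 holds the other 8 (1.04 to 1.20). The cultures had a level of their own (0.484 to 0.502), so that hybridisation level and the group cannot be told apart. The ratio of 5' to 3' signal of Gapdh, a sign of intact RNA, was 0.916 to 0.967 in the cultures, 0.656 to 0.845 in set 1 and 0.909 to 1.03 in set 2. Tumour 330 resembled the other tumours least (mean correlation 0.867, against 0.882 to 0.92 for the rest). Of the genes that were to be used as checks, Trp53, Runx2, Bglap and Spp1 had no probe set named for them alone, so their signal was not read.

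Of 12887 genes measured, 848 were higher in the tumours (6.58%) and 1530 were lower (11.9%), 18.5% in all. The median difference of all genes was −0.065. Among the called genes, 581 of the higher and 1294 of the lower also had groups that did not overlap, every tumour lying on the same side of every culture. Of all genes, called or not, 26.3% had groups that did not overlap (8.95% higher and 17.3% lower). All 848 higher and all 1530 lower genes had the same sign in both sets of tumours. Of the higher genes 73.6%, and of the lower 76.9%, were called in each set on its own. These genes were chosen on the same tumours, and each set was compared with the same cultures. The agreement between the sets is therefore partly built in and is not an independent check. With all arrays scaled to a common 75th percentile, 45.1% of the calls were higher, against 35.7% here. Differences of 16-fold or more were reached by 35 higher and 74 lower genes. Tumours varied more than cultures: the median SD of a gene was 0.368 over the 15 tumours and 0.119 over the cultures, and 92.42% of genes had the larger SD in the tumours.

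The 15 largest rises with groups that did not overlap fell into a few kinds of gene. Macrophage genes made up 7 of them (C1qa, C1qb, C1qc, Ctss, Ms4a6b, Mpeg1 and Ms4a6d), and Myh1, Myh2 and Mb are genes of adult skeletal muscle. The others were the Wnt inhibitor Wif1, the receptor Tnfrsf19, the peptide gene Nts, the transcription factor Tbx1 and the laminin chain Lama1. Tnfrsf19, a TNF receptor family member also called Troy, was at 6.58, 6.72 and 6.72 in the cultures and from 8.88 (tumour 330) through a median of 11.84 to 12.70 (tumour 331) in the tumours. Its difference was 4.94 (SE 0.691, adjusted p = 4.19e-06). Nts, which encodes the secreted peptide neurotensin, read 3.64, 3.64 and 3.69 in the cultures and 3.69, 9.12 and 12.22 at the lowest, median and highest tumour. Tumours 176, 330, 183 and 188 were the low ones for Nts, with levels of 3.69, 4.26, 5.11 and 5.64, while tumours 29, 66 and 119 were above 11. The difference of 4.92 (SE 1.497, adjusted p = 0.01) was 6.23 in set 1 and 3.78 in set 2, and set 2 alone did not reach the threshold. Lama1, a laminin chain of embryonic basement membranes, was at the floor in all 3 cultures and between 3.87 (tumour 330) and 9.92 (tumour 179) in the tumours, with a median of 8.79. That is a rise of at least 23.3-fold (adjusted p = 0.000282).

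The 15 largest falls, also taken among genes whose groups did not overlap, were Adipoq, Egfl6, Penk, Ccn3, Hs6st2, Wfdc21, Cxcl12, Efemp1, Abi3bp, Hp, Angpt1, Comp, G0s2, Gpm6b and Il1rn. Abi3bp, an extracellular matrix protein, was at 12.34, 12.38 and 12.29 in the cultures and between 3.91 and 9.02 in the tumours (median 5.92), a difference of −6.13 (SE 0.847, adjusted p = 3.53e-06). Hp, the plasma protein haptoglobin that adipocytes also make, was at 12.10, 12.16 and 12.33 in the cultures and had a tumour median of 5.40. Its tumour levels ran from 4.44 (tumour 353) to 10.87 (tumour 188). G0s2, an inhibitor of the lipase that empties fat droplets, fell from 10.50, 10.52 and 10.54 to a tumour median of 3.93 (highest 8.41, again in tumour 188), a difference of −5.84 (SE 0.749, adjusted p = 1.22e-06). Il1rn, the natural antagonist of interleukin 1, stood at 11.37, 11.53 and 11.46 in the cultures and at 4.22 to 9.49 in the tumours, a difference of −5.64 (SE 0.948, adjusted p = 4.11e-05).

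**Figure D1:**
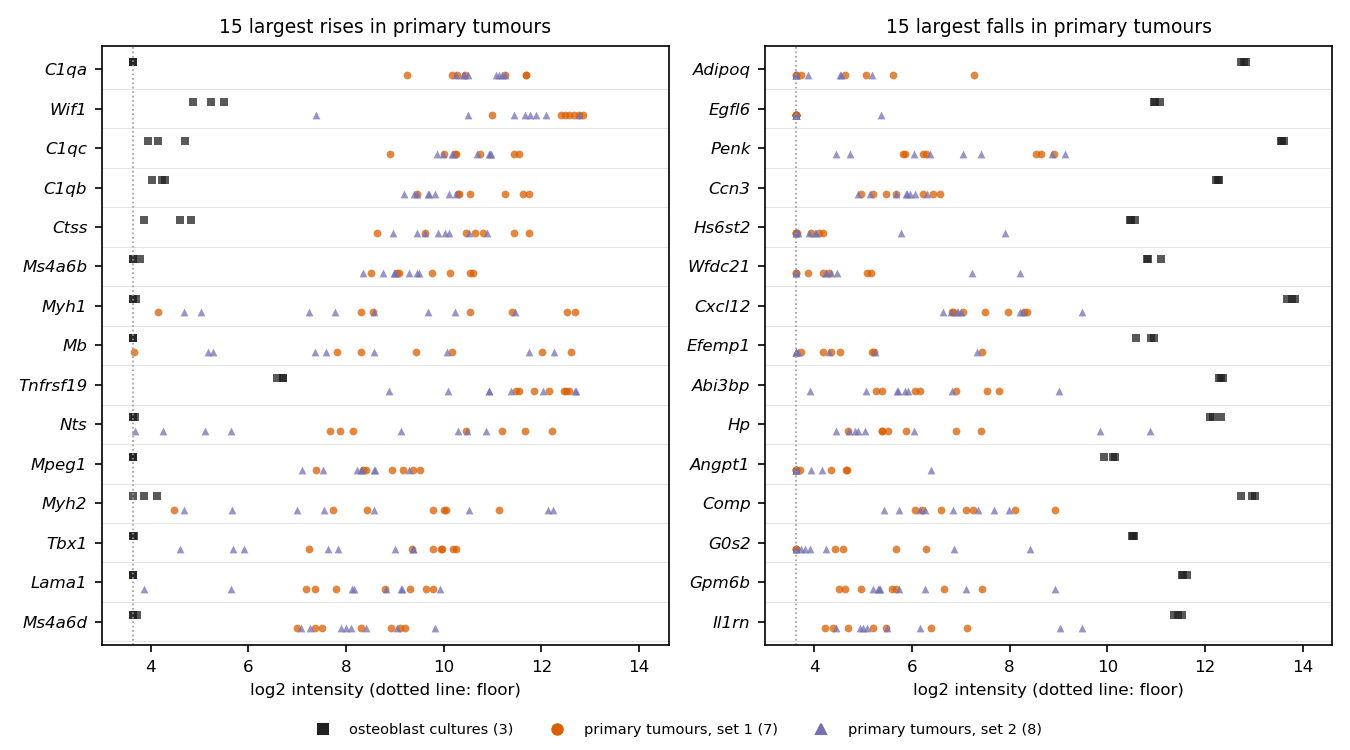
Log2 intensity (x axis) of the 15 largest rises (left) and the 15 largest falls (right) among called genes whose groups did not overlap. Each point is an array: black squares are the 3 osteoblast cultures, orange circles the 7 tumours of set 1, violet triangles the 8 tumours of set 2, and the dotted line is the floor of 3.64. The cultures sit tightly together in every row, while tumours spread over several log2 units for Nts, Myh1, Mb and Myh2.

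Macrophage genes stood highest above the cultures. Of 30 measured macrophage markers, 29 rose and none fell (6.58% of all genes were higher), with a median difference of 3.80. Csf1r, the receptor through which macrophages are kept alive, was at 6.47, 6.66 and 6.57 in the cultures and from 10.17 (tumour 94) through 10.62 to 12.24 (tumour 12) in the tumours. The difference was 4.39 (SE 0.393, adjusted p = 4.26e-09). C1qa, C1qb and C1qc encode the chains of complement C1q, which tissue macrophages secrete. C1qa was at the floor in the 3 cultures and between 9.24 and 11.69 in the tumours, at least 136-fold higher. Mpeg1, Ptprc, Trem2 and Cd163 were also at the floor in all 3 cultures, although another probe set of Ptprc gave −1.03. Trem2 was between 3.86 and 7.29 and Cd163 between 4.17 and 7.67 in the tumours, and Fcgr1 was the member that did not pass (0.85). The mean level of the list was 5.10 to 5.18 in the cultures and 7.43 (tumour 94) to 9.62 (tumour 12) in the tumours, with a median of 8.48. In such bulk samples, a change in the number of cells of a type and a change in RNA per cell cannot be told apart.

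The promoters of the macrophage markers were read to see what the members that rose together have in common in sequence. RefSeq promoters (build GRCm38.p6, 250 bases before to 50 after each start) covered 10364 of the 12887 genes measured. They were searched on both strands for 6 motifs, with overlaps between them allowed: GAGGAA (the core bound by factors such as PU.1), TATAAA (the TATA box), CCAAT (the site of NF-Y), TTCGCG (an E2F core), CAGCTG (an E-box) and AGGTCA (a nuclear receptor site). GAGGAA was in 16 of 25 promoters of 22 macrophage list genes (64%), against 28.3% of all 32851 promoters and 26.4% of those of measured genes. It was also in 40% of the promoters of adult muscle genes, 40% of those of mitosis genes and 42.9% of those of endothelial genes. Other motifs were above the share of all promoters in the macrophage list too, CAGCTG at 36% and AGGTCA at 24% (16.3% of all promoters for each). Of the 9 macrophage genes with GAGGAA in the 120 bases before the start, those bases are shown for the 4 with the largest rise, in the direction of transcription. Capitals mark GAGGAA, or TTCCTC where it lies on the other strand.
C1qb, chr4:136886201-136886320, minus strand: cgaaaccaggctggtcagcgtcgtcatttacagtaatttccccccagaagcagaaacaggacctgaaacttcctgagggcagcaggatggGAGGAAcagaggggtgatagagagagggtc
Mrc1, chr2:14229294-14229413, plus strand: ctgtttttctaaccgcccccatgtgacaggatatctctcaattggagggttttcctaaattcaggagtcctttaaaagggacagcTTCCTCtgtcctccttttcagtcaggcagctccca
Fcgr3, chr1:171059395-171059514, minus strand: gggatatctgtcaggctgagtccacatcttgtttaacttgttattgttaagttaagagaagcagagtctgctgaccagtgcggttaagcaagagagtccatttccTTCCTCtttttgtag
Cd53, chr3:106790150-106790269, minus strand: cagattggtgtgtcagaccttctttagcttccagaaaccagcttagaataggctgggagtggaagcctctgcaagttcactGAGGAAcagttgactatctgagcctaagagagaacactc

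Counted from the start, the motif began at position −30 in C1qb, −35 in Mrc1, −15 in Fcgr3 and −39 in Cd53. C1qb read 4.30, 4.03 and 4.24 in the cultures and 9.19, 10.10 and 11.74 at the lowest, median and highest tumour. Mrc1, the mannose receptor of tissue macrophages, rose from 5.18, 5.76 and 5.17 to a tumour median of 9.53, a difference of 4.11 (SE 0.363, adjusted p = 3.3e-09). Fcgr3, a receptor for immunoglobulin G, differed by 4.07 (SE 0.427, adjusted p = 5.88e-08) and Cd53, a membrane protein of white blood cells, by 3.60 (SE 0.438, adjusted p = 5.55e-07). All 15 tumours lay above all cultures for these 4 genes. Fcgr1, which also holds the motif in this stretch, was the member that did not pass. Among all genes called higher, 29.9% of promoters held GAGGAA, and among those called lower 26.3%. A match is a run of letters and not a measured binding site.

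Adult skeletal muscle genes were bright in some tumours and near the culture level in others. Of 25 measured, 13 rose (52%, against 6.58% of all genes) and none fell, with a median difference of 2.51. The mean level of the list was 4.90 to 4.97 in the cultures and ran from 4.64 (tumour 119) through 7.14 to 9.84 (tumour 29) in the tumours, so the groups overlapped. The count fell to 5, 5 and 4 without osteoblast culture 1, 2 and 3. Myh1, a myosin heavy chain of fast fibres, was at 4.15 in tumour 119, 4.67 in tumour 330 and 5.03 in tumour 183, and at 12.69 in tumour 29 and 12.52 in tumour 12. Mylpf, a light chain of the same fibres, ran from 3.91 to 12.43 with a median of 8.59, against 3.98, 4.76 and 3.65 in the cultures. Its difference of 4.56 (SE 1.49, adjusted p = 0.0157) was lost without osteoblast culture 1 or 3. The motif CAGCTG, an E-box that the MyoD family of muscle factors can bind and that reads the same on both strands, was in 15 of 25 promoters of 21 muscle genes (60%), against 16.3% of all promoters and the 36% of the macrophage list. The 2 called muscle genes with it in the 120 bases before the start are printed with the motif in capitals.
Mylpf, chr7:127211488-127211607, plus strand: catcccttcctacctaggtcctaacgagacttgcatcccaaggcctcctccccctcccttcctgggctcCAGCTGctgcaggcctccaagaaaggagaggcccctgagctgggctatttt
Atp2a1, chr7:126463074-126463193, minus strand: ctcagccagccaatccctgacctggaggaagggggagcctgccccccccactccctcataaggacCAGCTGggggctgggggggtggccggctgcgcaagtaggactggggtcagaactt

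Atp2a1, the calcium pump of fast muscle fibres, had a difference of 2.51 (SE 0.985, adjusted p = 0.0426) that was lost without any 1 of the 3 cultures. The other 4 muscle genes with the motif in the same stretch did not pass, Tnni1 at 0.75, Myh4 at 0.75, Pygm at 0.15 and Cav3 at −0.28.

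Markers of the other cell types were read for all measured members of each list. Of 21 endothelial markers, 14 rose and 1 fell (median 1.49), where 6.58% of all genes were higher. With the filter at the 75th percentile 10 were measured and 6 rose, and 10 of 21 rose without osteoblast culture 1. The lowest median over the settings was 0.884. The endothelial list stood at 5.84 to 6.25 in the cultures and 6.51 to 7.66 in the tumours, with no overlap. T and NK cell markers were called in 0 of 5 (5.49 to 5.72 in the cultures, 5.43 to 5.995 in the tumours), B and plasma cell markers in 0 of 3 and mast cell markers in 0 of 2 (1 without tumour 182 or 330). The filter on dim probe sets had left out 10 of 17 listed T and NK, 5 of 10 B and plasma and 5 of 7 mast cell markers. It also left out 3 of 13 neutrophil and myeloid precursor and 4 of 10 epithelial markers. So few measured members say little about whether these cell types differed. At an unadjusted p below 0.05, limma gave 2 of the T and NK, 2 of the B and plasma and 2 of the mast cell markers. Of 12 osteoclast markers 3 rose, among them Ctsk, the collagen-cutting protease of osteoclasts, from 10.53, 10.55 and 10.45 to 11.22, 11.93 and 12.88 at the lowest, median and highest tumour. Ctsk differed by 1.43 (SE 0.311, adjusted p = 0.000665), and the count of the list was 1 without osteoblast culture 2. Neutrophil and myeloid precursor markers rose in 2 of 8 and fell in 1, and epithelial markers rose in 1 of 6 (0 without any 1 culture), with the list highest in tumour 188, followed by tumours 183, 12 and 94. The part of these cell types in the results that follow was not tested.

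**Figure D2:**
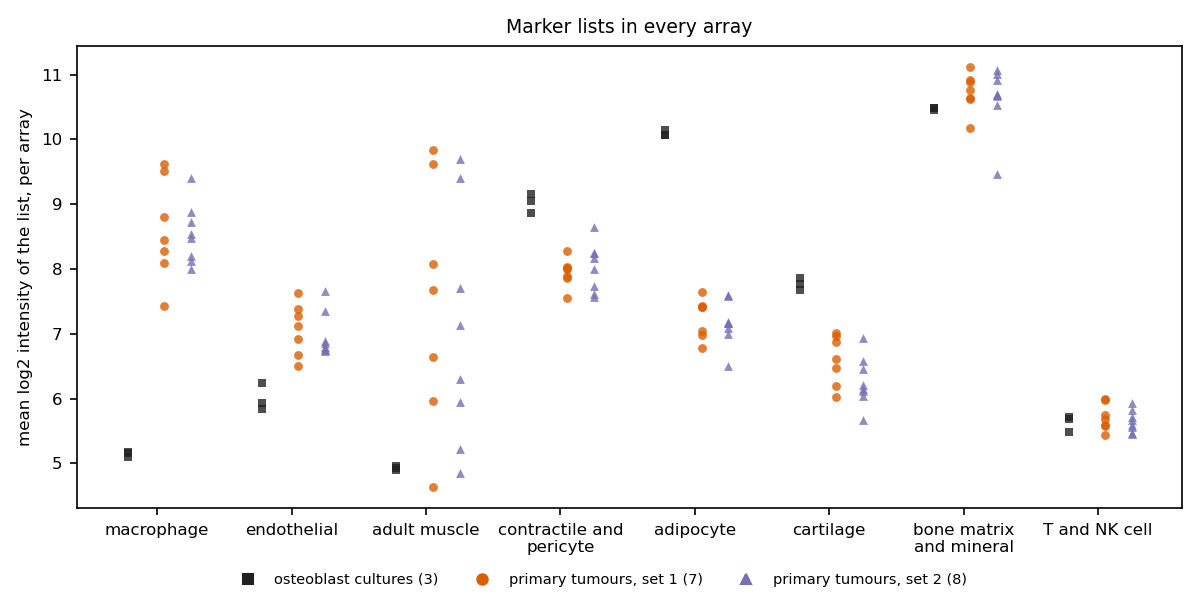
Mean log2 intensity (y axis) of 8 marker lists in each array; black squares are the 3 osteoblast cultures, orange circles the 7 tumours of set 1 and violet triangles the 8 of set 2. Macrophage and endothelial levels are above the cultures in all tumours and adipocyte, cartilage and contractile levels below. Cartilage levels are from the 17 of 22 listed genes that passed the filter on dim probe sets. Muscle runs from 4.64 to 9.84 among tumours, and T and NK cell levels, from 5 of 17 listed markers, overlap.

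Gene lists are described by the number of members that rose or fell and by their median difference, beside −0.065 over all genes. Of all genes, 6.58% rose and 11.9% fell. A list count near those shares is not read as a result about its members.

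**Figure D3:**
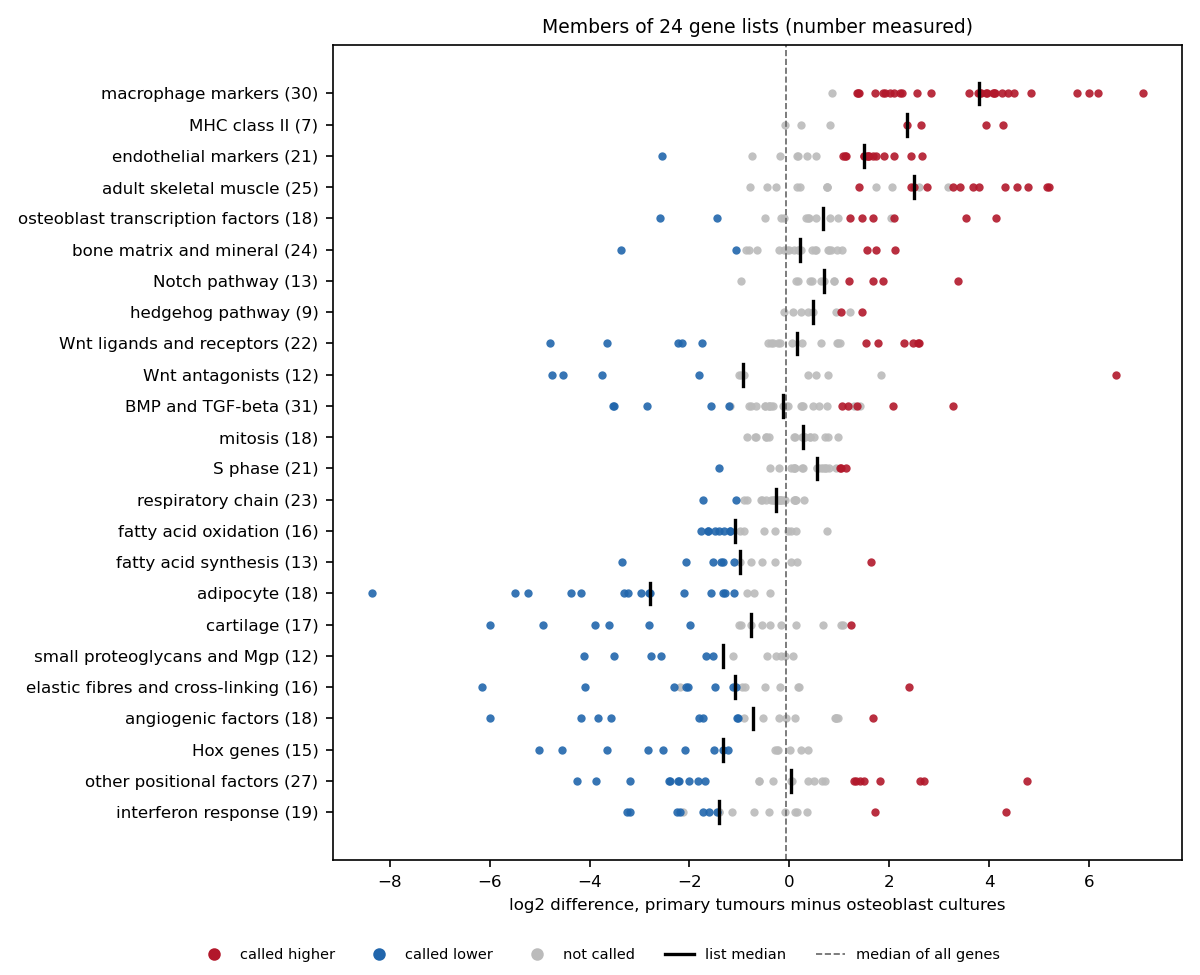
Log2 difference, primary tumours minus osteoblast cultures (x axis), of each measured member of 24 gene lists, with the number measured in parentheses. Red points rose, blue points fell, grey points were not called, black bars are list medians, and the dashed line is the median of all genes (−0.065). Macrophage members lie to the right and adipocyte members to the left, while the positional, Wnt and BMP lists hold members on both sides.

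Transcription factors of the osteoblast lineage moved in both directions. Of 18 measured, 6 rose and 2 fell, with a median of 0.68, and the mean of the list was 7.43 to 7.45 in the cultures and 7.54 (tumour 183) to 8.82 (tumour 29) in the tumours. Alx1, a homeobox factor of craniofacial mesenchyme, was at 3.64, 3.68 and 3.64 in the cultures and from 4.34 (tumour 188) through 8.12 to 10.35 (tumour 29) in the tumours. Every tumour was above every culture, by 4.13 on average (SE 1.01, adjusted p = 0.00192), and tumours 188, 183 and 330 were the 3 lowest. Runx3, a relative of the osteoblast master regulator Runx2, read 5.90, 5.98 and 5.69 in the cultures and 8.54, 9.31 and 10.42 at the lowest, median and highest tumour. Its difference was 3.54 (SE 0.292, adjusted p = 9.79e-10), but another probe set of Runx3 gave 0.50. Runx1, the third member of that family, moved the other way, from 10.31, 9.99 and 10.06 to a range of 6.48 (tumour 176) to 9.17 (tumour 12) and a median of 7.46. It fell by 2.60 (SE 0.673, adjusted p = 0.00315), with no overlap, and its 5 probe sets ran from −3.55 to −0.60.

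Lef1, a nuclear partner of beta-catenin in Wnt signalling, was above all cultures in 14 of 15 tumours and differed by 2.09 (SE 0.545, adjusted p = 0.00333). Dlx5, a homeobox activator of osteoblast genes, was at 7.80, 7.64 and 7.77 in the cultures and 7.83 to 9.80 in the tumours (median 8.85), a difference of 1.22 that was 1.48 in set 1 and 0.99 in set 2, where it did not pass. Twist1, which holds back osteoblast maturation, differed by 1.45 (SE 0.479, adjusted p = 0.0168), was highest in tumour 182 and was below the cultures in tumour 183, and its call was lost without osteoblast culture 1 or 3. Sp7, which commits cells to the osteoblast lineage, differed by 1.67, and that call was lost without any 1 culture. Prrx1, a marker of limb and skeletal progenitors, fell from 11.55, 11.55 and 11.43 to 8.38 to 11.09, with a median of 10.16 (difference −1.46, SE 0.364, adjusted p = 0.00233). Msx2 had a mean difference of 2.04 that did not pass, being at 3.64 in tumour 176 and 8.74 in tumour 179.

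Bone matrix and mineral genes were called at a share close to that of all genes. Of 24 measured, 3 rose (12.5%, against 6.58% of all genes), 2 fell (8.33%, against 11.9%) and 19 were not called (median 0.21). The list level was 10.46 to 10.49 in the cultures and 9.46 (tumour 330) to 11.13 (tumour 12) in the tumours, on both sides of the cultures. Pth1r, the receptor for parathyroid hormone, was the riser whose groups did not overlap and whose call held in every setting: 9.12, 9.21 and 9.07 in the cultures against 9.62 (tumour 330), 10.72 and 11.46 (tumour 94) in the tumours, a difference of 1.55 (SE 0.349, adjusted p = 0.000922). Alpl, the alkaline phosphatase that frees phosphate for mineral, was at 9.82, 9.95 and 10.16 in the cultures. In 14 tumours it was between 11.80 and 13.05 and in tumour 330 it was 7.42. Its difference of 2.11 (SE 0.758, adjusted p = 0.0271) lost its call without any 1 of the 3 cultures and with set 2 alone.

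Phex, an osteocyte protease that limits phosphate wasting, showed the largest fall of the list, with 8.05, 8.01 and 7.99 in the cultures and a tumour median of 3.82. Tumour 183 was at 10.36, above the cultures, and the other 14 were below them (difference −3.38, SE 1.03, adjusted p = 0.0101). Ibsp, bone sialoprotein, had a mean difference of −0.81 that did not pass, with 13.04 in tumour 183 and 4.73 in tumour 330. Dmp1, another osteocyte matrix protein, differed by 0.25 in set 1 and −1.84 in set 2 and was not called. Col1a1 differed by 0.09, near the top of the scale in every array, where 13.88 to 14.11 in the tumours met 13.84 to 13.95 in the cultures. Smpd3 (1.73) and Fkbp11 (−1.07) were called, but lost the call without any 1 culture, and the count of risers was 1 without osteoblast culture 1 or 3.

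The Hox genes, which give cells their position along the body and limb axes, held no riser among those measured. Of 33 on the list, 4 had no probe set named for them alone, 14 were left out by the filter on dim probe sets and 15 were measured, of which 0 rose and 9 fell, with a median of −1.33. A gene bright in the 3 cultures alone passes that filter and had to be lower in the tumours, so nothing is read from this count. With no filter, 10 of 29 fell and 0 rose, and the median was −0.29. The mean level of the 15 that passed the filter was 7.01 to 7.12 in the cultures and 5.14 to 5.59 in the tumours. That gap is shaped by the same filter, so nothing is read from it either. Hoxa10 was at 9.71, 9.54 and 9.41 in the cultures and 3.66 (tumour 183), 4.56 and 5.06 (tumour 66) at the lowest, median and highest tumour, a difference of −5.01 (SE 0.205, adjusted p = 8.37e-16). Hoxc10 read 8.15, 8.38 and 8.07 in the cultures and was at the floor in 14 tumours and at 3.76 in tumour 353 (difference −4.55, SE 0.0844, adjusted p = 1.53e-23). With 14 tumours at the floor, that SE and adjusted p understate the spread. Hoxa11 went from 8.79, 8.47 and 8.35 to between 5.67 and 6.36, a difference of −2.53 (SE 0.150, adjusted p = 2.33e-12). These 3 belong to the paralogue groups that pattern the limbs and the posterior trunk, and all 15 tumours were below all cultures for each.

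Other posterior or limb Hox genes that fell were Hoxc8 (−3.65), Hoxd8 (−2.09), Hoxa9 (−1.52, with −4.94 by another probe set), Hoxa13 (−1.33) and Hoxd9 (−1.23). Hoxa13 and Hoxd9 lost their calls when the floor was raised or dropped. Hoxa3, an anterior gene, was at 6.90, 6.90 and 7.33 in the cultures and at the floor in 10 tumours, with 6.87 in tumour 183 (difference −2.83, SE 0.532, adjusted p = 0.000147). The 6 that were not called were Hoxb2 (0.38), Hoxb3 (0.23), Hoxd13 (0.01), Hoxc4 (−0.22), Hoxc6 (−0.25) and Hoxa5 (−0.29).

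Other transcription factors that mark regions of the embryo split: of 27, 8 rose and 10 fell. Their median was 0.04 and changed sign over the settings (−0.28 to 0.21). Tbx1, a T-box factor of the pharyngeal arches from which jaw and neck tissue arise, was at 3.64, 3.64 and 3.67 in the cultures. It was at 4.61 in tumour 330, 5.69 in tumour 176 and 5.92 in tumour 183, and between 7.23 and 10.25 in the other 12, a difference of 4.76 (SE 0.951, adjusted p = 0.000288). Tbx4, the T-box factor of the hindlimb, went the other way, from 8.21, 8.27 and 8.05 to the floor in 10 tumours, with 6.34 in tumour 12 (difference −4.24, SE 0.402, adjusted p = 1.05e-08). Pitx1, which acts with Tbx4 in the hindlimb, fell from 8.57, 8.23 and 8.29 to a range of 5.28 to 7.82 and a median of 5.83 (difference −2.40, SE 0.457, adjusted p = 0.000171). The tumours thus lay below all cultures for both hindlimb factors.

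Among the other risers were Tbx2 (2.70, below the cultures in tumour 330 at 4.16), the LIM homeobox factor Lhx2 (2.62), the neural crest factor Tfap2a (1.81, lost without osteoblast culture 3), the forkhead gene Foxf1 (1.41), Irx3 (1.34) and Tbx3 (1.30). For Foxf1 and Irx3 the groups did not overlap. Among the other falls, Foxc1, a forkhead factor of skull and eye mesenchyme, was at 9.94, 9.76 and 9.73 in the cultures, at the floor in tumour 179 and highest in tumour 183. Its tumour median was 5.87, and it differed by −3.87 (SE 0.761, adjusted p = 0.000247). Emx2 (−3.18), Tbx18 (−2.38), Barx1 (−2.24), Tbx15 (−2.22) and Foxc2 (−2.01) were below all cultures in all tumours. Meis2 (−1.84) and Foxd1 (−1.70) were above the cultures in 2 tumours, and both calls were lost without osteoblast culture 1.

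**Figure D4:**
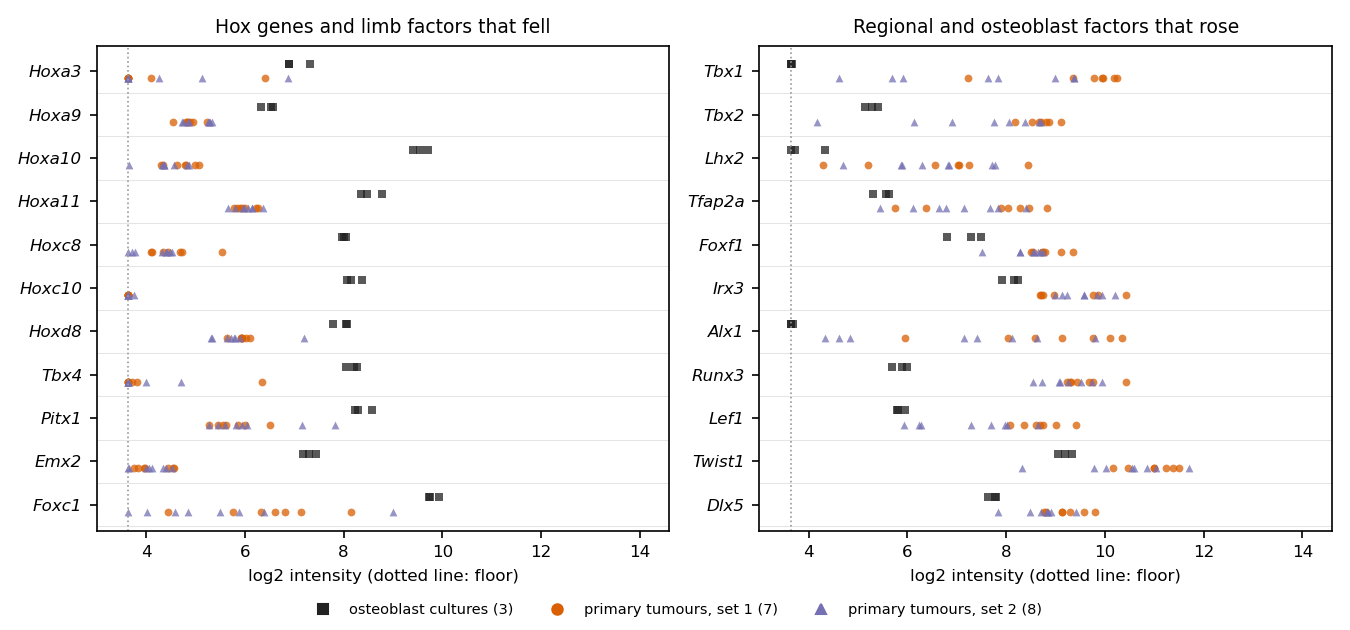
Log2 intensity (x axis) of Hox genes and regional factors that fell (left) and of regional and osteoblast factors that rose (right). Black squares are the 3 osteoblast cultures, orange circles tumours of set 1, violet triangles tumours of set 2, and the dotted line the floor of 3.64. Hoxc10 is at or near the floor in all tumours, and Tbx1 and Alx1 are at or near it in the cultures and spread over several log2 units in the tumours.

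Genes of the Wnt pathway moved in both directions. Wnt ligands bind Frizzled receptors with Lrp co-receptors and stabilise beta-catenin, R-spondins acting through Lgr receptors strengthen the signal, and Sfrp, Dkk and Wif1 proteins block it from outside. Of 12 antagonists, 1 rose, 4 fell and 7 were not called (median −0.94), and the count of risers was 2 without tumour 183 or 330. Wif1 was the riser, with 5.24, 5.49 and 4.87 in the cultures and 7.38 (tumour 330) to 12.86 (tumour 94) in the tumours, all above the cultures. Sfrp1 stood at 12.28, 11.88 and 11.97 in the cultures and at 5.48, 7.39 and 8.94 at the lowest, median and highest tumour, a difference of −4.75 (SE 0.670, adjusted p = 4.66e-06). Sfrp2 fell from 13.31, 13.25 and 13.11 to 6.56 to 10.59, with a median of 8.65 (difference −4.53, SE 0.647, adjusted p = 5.47e-06). Both were below all cultures in all tumours, as were Frzb (−3.75, at the floor in 3 tumours) and Dkk3 (−1.80). Dkk1 (−0.90) and Dkk2 (−1.01) were not called.

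Of 22 Wnt ligands, receptors and R-spondins, 6 rose and 5 fell, with a median of 0.15 that ran from −0.13 to 0.62 over the settings. Wnt7b was at 5.81, 5.31 and 5.83 in the cultures and 6.12 (tumour 183), 8.37 and 9.79 (tumour 353) in the tumours, a difference of 2.59 (SE 0.511, adjusted p = 0.000251). Wnt4 was at 4.57, 5.67 and 4.86 in the cultures and 6.79 to 8.98 in the tumours (difference 2.48, SE 0.371, adjusted p = 1.01e-05). For these 2 ligands no tumour met a culture. Wnt6 (1.53) and Wnt5b (1.78) also rose, Wnt5b being below the cultures in tumour 183. R-spondins moved in opposite directions. Rspo1 was at 3.64, 3.78 and 3.64 in the cultures and 4.00 to 8.04 in the tumours (difference 2.30, lost without osteoblast culture 1 or 3), and Rspo3 at 9.32, 9.40 and 9.10 against 3.64 to 5.82 (difference −4.79, SE 0.739, adjusted p = 1.45e-05). Frizzled receptors were divided too. Fzd6 rose by 2.58 (adjusted p = 9.63e-05), while Fzd8 (−3.65, adjusted p = 8.05e-09), Fzd4 (−2.23) and Fzd2 (−1.74) and the co-receptor Lrp6 (−2.15, adjusted p = 1.78e-08) fell, in each case with no overlap.

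Genes that Wnt signalling is known to switch on gave 3 rises and 2 falls in 9 measured (median 0.88). Nkd2 (2.31, SE 0.622), Lef1 (2.09) and Rnf43 (1.64, SE 0.433) rose. Lgr5, an R-spondin receptor and stem cell marker, was at 10.28, 9.94 and 9.87 in the cultures and at a tumour median of 4.87, with 8.40 in tumour 330 (difference −4.88, SE 0.609, adjusted p = 8.19e-07). Ccnd1 fell by 1.64, a call lost without osteoblast culture 3. Axin2, the feedback inhibitor often used as a reporter of the pathway, differed by 0.93 (SE 0.209, adjusted p = 0.000914), just under the 2-fold limit, and was above all cultures in 13 of 15 tumours.

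**Figure D5:**
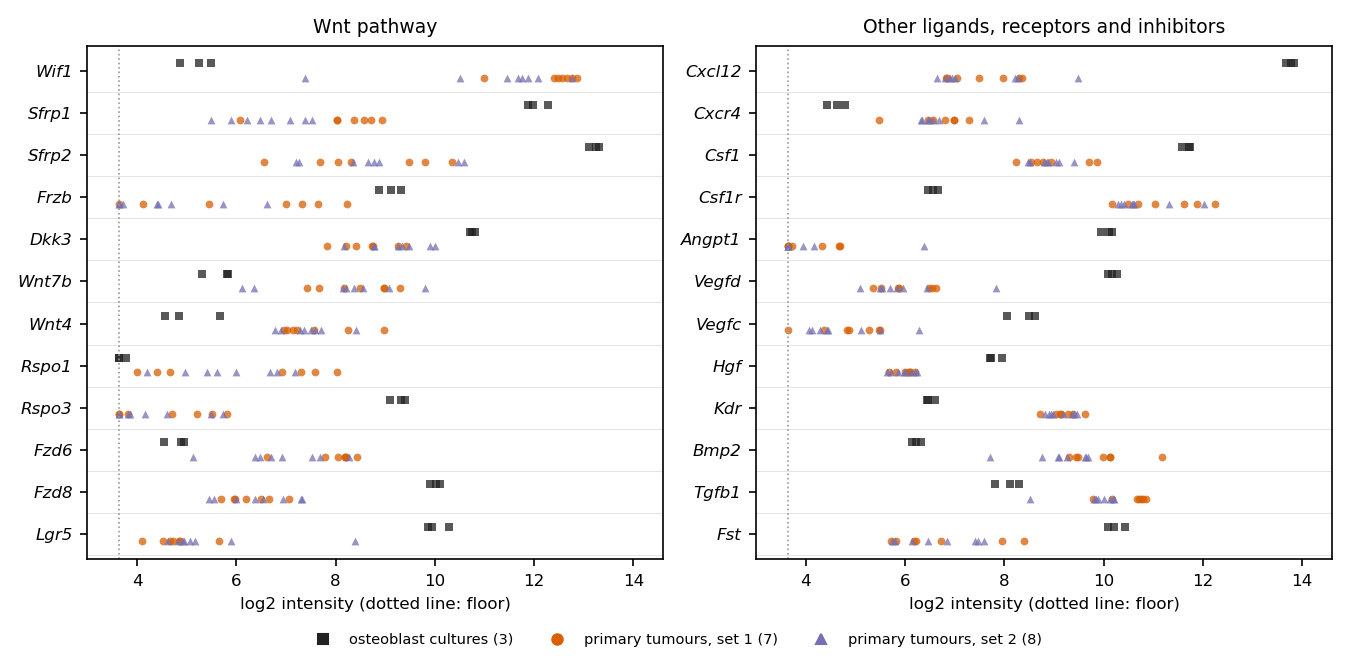
Log2 intensity (x axis) of Wnt pathway genes (left) and of other ligands, receptors and inhibitors (right). Black squares are the 3 osteoblast cultures, orange circles tumours of set 1, violet triangles tumours of set 2, and the dotted line the floor of 3.64. Sfrp1, Sfrp2, Fzd8, Cxcl12, Csf1 and Vegfd are lower in all tumours than in any culture, and Wif1, Wnt4, Csf1r, Kdr and Bmp2 are higher.

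BMP and TGF-beta ligands, which drive bone formation and matrix deposition, held 5 rises and 5 falls (16.1% each) in 31 measured genes. Their median was −0.12, with a range of −0.29 to 0.075 over the settings. Without any 1 culture, 3 rose. Bmp2, a strong inducer of bone, was at 6.23, 6.33 and 6.14 in the cultures and 7.70 (tumour 330), 9.49 and 11.18 (tumour 12) in the tumours, a difference of 3.27 (SE 0.511, adjusted p = 1.71e-05). Tgfb1 was at 8.29, 8.12 and 7.82 in the cultures and 8.53 to 10.86 in the tumours (median 10.17), a difference of 2.08 (SE 0.309, adjusted p = 8.96e-06). For both ligands all tumours were above all cultures, and so they were for Bmp6 (1.18). Bmp4 fell by 1.57. The inhibitor Fst, follistatin, which traps activins and some BMPs, went from 10.43, 10.20 and 10.09 to a range of 5.73 to 8.39 (difference −3.54, SE 0.444, adjusted p = 8.87e-07). Tgfbr3, the co-receptor betaglycan, fell by 3.51 (SE 0.674, adjusted p = 0.000192). Id4, a BMP target, fell by 2.85, a call lost without osteoblast culture 1 or 2. Bambi (1.36) and Bmp7 (1.06) lost their calls without any 1 culture, and Bmpr1a (−1.21) read 0.54 by another probe set.

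Notch genes rose in 4 of 13 and fell in 0, with a median of 0.69. Hey1, a direct target of Notch, was at 5.08, 4.81 and 5.25 in the cultures and from 4.92 (tumour 330) through 8.65 to 10.10 (tumour 119) in the tumours, 14 of which were above all cultures (difference 3.38, SE 0.631, adjusted p = 0.000138). The ligands Dll1 (1.87, SE 0.302, adjusted p = 2.52e-05) and Dll4 (1.20) and the receptor Notch4 (1.67) rose with no overlap, Dll4 losing its call after quantile normalization. Dll4 and Notch4 are mainly endothelial, and the endothelial list level was higher in all tumours, as given above. Jag1 was not called (−0.98), and 1 gene fell without tumour 12 or 64. In the hedgehog list 2 of 9 rose, Gli1 (1.45) and Shh (1.03), and the count was 0 without osteoblast culture 1 or 3, 1 without culture 2 or tumour 176, 182 or 183, and 4 without tumour 330.

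FGF genes gave 1 rise and 4 falls in 17, with a median of −0.02 that changed sign over the settings (−0.47 to 0.085). Fgfr3, the receptor that restrains growth-plate cartilage, differed by 2.09 (SE 0.510, adjusted p = 0.00188) and lay above all cultures in 14 tumours. Fgf7, a mesenchymal ligand for epithelial cells, was at 10.06, 9.99 and 9.91 in the cultures and 5.50 to 8.31 in the tumours (difference −3.10, SE 0.471, adjusted p = 1.23e-05). Fgf18 (−1.46) and the feedback genes Spry2 (−1.48) and Etv5 (−1.39), which FGF signals switch on, fell with no overlap. In the IGF list 0 of 12 rose and 4 fell (median −1.05). Igfbp2 was at 11.80, 11.71 and 11.30 in the cultures and had a tumour median of 6.49, with 11.05 in tumour 330 (difference −4.57, SE 0.804, adjusted p = 7.1e-05). Igf1 (−2.30, lost with set 1 alone) and the protease Pappa (−2.13, but 0.36 by another probe set) fell. Igf2 had a mean difference of −2.42 while tumour 330 stood at 13.86, above the cultures at 10.76, 11.08 and 11.10, and its call was lost in 21 of the 31 other settings.

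Chemokines and cytokines gave 6 rises and 8 falls in 27 (median −0.05, from −0.62 to 0.087 over the settings), and the count of falls was 4 without osteoblast culture 1 and 5 without culture 3. The ligand Cxcl12, with which marrow stroma holds blood stem cells in place, was at 13.84, 13.78 and 13.68 in the cultures. In the tumours it was between 6.64 (tumour 176) and 9.49 (tumour 330), with a median of 7.05, a difference of −6.23 (SE 0.793, adjusted p = 1.1e-06). Its receptor Cxcr4 moved the opposite way, from 4.43, 4.78 and 4.63 to 5.47 (tumour 119), 6.56 and 8.30 (tumour 183), a difference of 2.14 (SE 0.377, adjusted p = 7.36e-05). The other Cxcl12 receptor, Ackr3, fell by 1.13 (SE 0.441, adjusted p = 0.0405). A like pair is the growth factor Csf1 and its receptor Csf1r. Csf1 was at 11.73, 11.58 and 11.73 in the cultures and 8.23 to 9.86 in the tumours (median 8.87), a difference of −2.76 (SE 0.248, adjusted p = 4.41e-09), while Csf1r differed by 4.39. Cxcr4 and Csf1r are made by white blood cells, and the macrophage list level was higher in all tumours; its part in these differences was not tested.

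Ccl12 and Ccr1 were at the floor in all 3 cultures and above it in all tumours, at least 11.9-fold and at least 8.59-fold higher. The alarm cytokine Il33 fell from 8.29, 8.34 and 8.05 to 3.96 to 7.32 (difference −2.58, SE 0.637, adjusted p = 0.00209). Cxcl5, which draws neutrophils, was at the floor in 11 tumours and at 11.24 in tumour 188, above the cultures at 9.21, 8.80 and 8.72. Tumour 188 was also highest for the neutrophil genes S100a8 (12.96) and S100a9 (12.85), followed by tumour 183 at 12.13 for both. Ccl7 (−1.83) and Cxcl14 (−2.01) fell, both with calls lost without osteoblast culture 1.

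Complement genes gave 2 rises and 3 falls in 11, beside the C1q chains counted with the macrophage genes. The receptor C3ar1 rose by 3.17 (SE 0.366, adjusted p = 2.61e-07) and properdin, Cfp, by 1.80 (SE 0.207, adjusted p = 2.5e-07). Cfb, the protease of the alternative pathway, was at 9.70, 9.60 and 9.38 in the cultures and 3.64 to 6.08 in the tumours (difference −4.996, SE 0.587, adjusted p = 3.44e-07), and the inhibitor Serping1 fell by 2.41, a call lost with set 1 alone. Interferon response genes fell in 7 and rose in 2 of 19 (median −1.41), but 2 fell without osteoblast culture 1 and 2 without culture 2. Culture 3 was the lowest of the 3 for several of them: Ifit1 read 10.13, 10.01 and 9.26 and Bst2 9.57, 9.67 and 8.86. Bst2, which tethers viruses to the cell surface, was at 4.78 to 8.43 in the tumours (difference −3.20, SE 0.695, adjusted p = 0.000682). Ifi202b was the main exception, at 3.91, 3.64 and 3.64 in the cultures and 6.02 to 9.59 in the tumours (difference 4.33, SE 0.446, adjusted p = 4.41e-08).

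Vessel growth factors and vessel cell markers moved apart. Of 18 angiogenic ligands and receptors, 8 fell and 1 rose (median −0.72), and 3 rose without osteoblast culture 1 and 2 without tumour 94, 179, 183, 188 or 331. Angpt1, which steadies vessels through the receptor Tek, was at 10.16, 10.11 and 9.94 in the cultures and at the floor in 8 tumours, with 6.39 in tumour 330 (difference −6.004, SE 0.503, adjusted p = 1.33e-09). Vegfd, a ligand for lymphatic and blood vessels, was at 10.27, 10.09 and 10.18 in the cultures and 5.10 to 7.84 in the tumours (difference −4.17, SE 0.494, adjusted p = 3.89e-07). Vegfc (−3.58), angiogenin, Ang (−3.84, adjusted p = 7.56e-12), Hgf (−1.82) and its receptor Met (−1.74) also fell with no overlap. Pdgfa rose by 1.68 (SE 0.425, adjusted p = 0.0026) and was below the cultures in tumour 330. Vegfa differed by −0.20 and was not called, with 4 tumours above and 9 below all cultures.

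Among endothelial genes, Kdr, the main receptor for VEGF, was at 6.45, 6.61 and 6.43 in the cultures and 8.71, 9.14 and 9.62 at the lowest, median and highest tumour, a difference of 2.65 (SE 0.210, adjusted p = 4.7e-10). The junction gene Cdh5 rose by 1.58 (SE 0.337, adjusted p = 0.00056). Pecam1 (1.49) and Sox18 (1.68) each overlapped in 1 tumour. Ramp2 was the member that fell, from 10.65, 10.79 and 10.49 to 7.67 to 8.73 (difference −2.54, SE 0.231, adjusted p = 5.34e-09). Ramp2 is a partner of the calcitonin receptor-like receptor and is made outside vessels too. Tek (0.36) and Flt1 (−0.19) were not called.

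Contractile and pericyte genes fell in 7 and rose in 2 of 15, with a median of −0.88, and the list was at 8.87 to 9.15 in the cultures and 7.56 to 8.65 (tumour 330) in the tumours. Tagln, an actin-binding protein of smooth muscle and spread fibroblasts, was at 11.77, 11.58 and 11.69 in the cultures and had a tumour median of 7.32. Tumour 330 was at 11.78, level with the cultures, and the next highest was 8.66 (difference −4.20, SE 0.730, adjusted p = 6.25e-05). Cnn1 was at the floor in 9 tumours and at 7.74 in tumour 330 (difference −4.46, SE 0.541, adjusted p = 5.56e-07). Myh11 (−3.16), Acta2 (−3.03, but −0.54 by another probe set), Lmod1 (−2.44) and Myl9 (−2.44) also fell. The pericyte genes Rgs5 (2.86, SE 0.422, adjusted p = 8.31e-06) and Kcnj8 (2.05) rose, and Pdgfrb was not called (−0.08).

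Among matrix genes outside the mineral list, cartilage genes were read first. Of 22 listed, 5 were left out by the filter on dim probe sets. Of the 17 measured, 6 fell, 1 rose and 10 were not called (median −0.77). A gene bright in the 3 cultures alone passes that filter and had to be lower in the tumours, so nothing is read from this count. Over all settings, no filter among them, 6 to 7 fell and 0 to 3 rose. Sox9, the master regulator of cartilage, was at 8.76, 8.90 and 8.63 in the cultures and 3.68 (tumour 87), 5.92 and 7.11 (tumour 12) in the tumours, a difference of −2.81 (SE 0.493, adjusted p = 6.87e-05). Cnmd, the secreted inhibitor of vessels chondromodulin, was at 8.55, 8.93 and 8.24 in the cultures and at the floor in all 15 tumours, at least 30.5-fold lower. Comp, a cartilage and tendon matrix protein, was at 12.97, 13.02 and 12.74 in the cultures and had a tumour median of 6.84. Cilp (−3.89), the joint lubricant Prg4 (−3.61) and Col2a1 (−1.99) fell as well, with no overlap. Sox5 was the riser (1.23), and its probe sets ran from −1.53 to 1.23.

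Small proteoglycans and Mgp fell in 6 of 12 and rose in 0 (median −1.33). Kera was at 7.81, 8.19 and 7.49 in the cultures and at the floor in 12 tumours, and none exceeded 4.19 (difference −4.12, SE 0.123, adjusted p = 6.65e-19). The SD of Kera over the cultures was 0.353, so with 12 tumours at the floor that SE and adjusted p understate the spread. Ogn (−3.51), Prelp (−2.78) and Mgp (−2.58), an inhibitor of mineral deposition, fell in all tumours, while Dcn (−0.17) and Bgn (−0.10) were not called. Elastic fibre and cross-linking genes gave 8 falls (4 after quantile normalization) and 1 rise in 16 (median −1.09). The rise was elastin itself: Eln was at 8.98, 8.63 and 8.24 in the cultures and 8.94 (tumour 183), 11.08 and 12.06 (tumour 179) in the tumours, a difference of 2.40 (SE 0.579, adjusted p = 0.00177) with overlap in tumour 183 alone. Its partners fell, Efemp1 by 6.16 (SE 0.744, adjusted p = 5.11e-07), Mfap5 by 4.10, Fbln5 by 2.31 and the cross-linking enzyme Lox by 1.49, each with no overlap.

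Matricellular proteins, which signal from within the matrix, gave 1 rise and 5 falls in 15, with a median of 0.00 that changed sign over the settings (−0.26 to 0.32). Tnn, tenascin-W of bone and stroma, was at 9.14, 8.88 and 9.13 in the cultures and 9.29 (tumour 183), 12.26 and 12.87 (tumour 94) in the tumours, a difference of 2.68 (SE 0.798, adjusted p = 0.00865) that set 2 alone did not support at the threshold (2.16). Thbs1 was at 13.31, 13.21 and 13.13 in the cultures and 7.24 to 10.11 in the tumours (difference −4.67, SE 0.393, adjusted p = 1.38e-09), and Ccn5 fell by 5.06 (SE 0.503, adjusted p = 2.39e-08). Of 16 basement membrane genes, the core proteoglycans Hspg2 (1.48) and Agrn (1.36) rose, and Col4a5 (−2.92), Nid1 (−2.75, SE 0.442) and Nid2 (−2.37, SE 0.316) fell. Of 14 other collagens, Col13a1 (2.74, SE 0.571) and Col16a1 (1.30) rose and Col14a1 fell by 3.77 (SE 0.514, adjusted p = 2.96e-06). The 2 further collagens that fell lost their calls without osteoblast culture 1 or 2.

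Proteases and inhibitors gave 3 rises (15%) and 2 falls (10%) in 20, led by Adamts4 (2.43, but −0.16 by another probe set) and the inhibitor Timp4. Timp4 was at 7.16, 7.30 and 7.09 in the cultures and 3.64 to 5.30 in the tumours (difference −3.19, SE 0.299, adjusted p = 9.28e-09). Without osteoblast culture 1 or 2, 1 fell. Integrins and cadherins gave 2 rises and 5 falls in 22. Itga4, a chain of the receptor for Vcam1 on white blood cells, was at 4.29, 3.90 and 4.83 in the cultures and 5.66 to 9.75 in the tumours, a difference of 3.40 (SE 0.606, adjusted p = 8.4e-05). Another probe set of Itga4 gave 0.64. Vcam1 itself fell from 10.94, 10.71 and 10.67 to 5.49 to 9.57 (difference −3.30, SE 0.543, adjusted p = 3.13e-05), and the collagen receptor chain Itga1 fell by 3.23 (SE 0.364, adjusted p = 1.82e-07) while Itga10 rose by 2.06. Axon guidance genes, many of which also act in bone and vessels, gave 6 rises (20%) and 5 falls (16.7%) in 30. Their median was 0.36, and 3 fell without osteoblast culture 1. Efnb2 (1.92) and Sema4d (1.81), which is made by osteoclasts and lymphocytes, rose with no overlap, and Sema6a (2.59) overlapped in 1 tumour. Sema3e was at the floor in 14 tumours, against 6.17, 6.10 and 5.55 in the cultures.

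Genes of fat storage were bright in the cultures. Of 18 adipocyte genes, 15 fell and 0 rose, with a median of −2.80, and the list was at 10.06 to 10.15 in the cultures and 6.51 (tumour 330) to 7.64 (tumour 12) in the tumours. Pparg, the regulator that turns progenitors into fat cells, was at 8.92, 8.97 and 8.70 in the cultures and at the floor in all 15 tumours, at least 37.4-fold lower (adjusted p = 2.2e-12). Cebpa, its partner, fell by 2.97 (SE 0.310, adjusted p = 5.3e-08), the fatty acid carrier Fabp4 by 5.48 and the lipase Lpl by 4.38. The defining adipocyte genes were thus measured in all cultures, and the part of fat cells in the falls that follow was not tested.

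Fatty acid synthesis genes fell in 6 and rose in 1 of 13 (median −0.98). Scd1, which puts the double bond into newly made fatty acids, was at 12.95, 13.03 and 12.97 in the cultures and 7.98, 9.83 and 10.91 at the lowest, median and highest tumour (difference −3.35, SE 0.420, adjusted p = 8.57e-07). Elovl6 (−2.08) and Acly (−1.37) fell with it, Fads2 rose by 1.63 (SE 0.300, adjusted p = 0.000116), and Fasn (−0.98) was just inside the 2-fold limit with all tumours below all cultures. Fatty acid oxidation genes fell in 8 of 16 (median −1.09). Acadm was at 10.55, 10.46 and 10.50 in the cultures and 8.22 to 9.35 in the tumours (difference −1.64, SE 0.190, adjusted p = 2.82e-07), and Acadl (−1.76), Cpt2 (−1.62) and Etfb (−1.49) were also below all cultures in all tumours. Cholesterol synthesis genes fell in 6 of 17 (median −0.96), led by Idi1 (−1.81, SE 0.387) and Msmo1 (−1.58), and the count was 3 without osteoblast culture 2. Of 23 respiratory chain genes 2 fell (8.7%, below the 11.9% of all genes), and the median of −0.26 reached 0.041 in another setting. The 2 were Uqcrc2 (−1.72) and Sdha (−1.07, but −0.007 by another probe set, and lost with 75th percentile scaling).

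Detoxifying and antioxidant genes fell in 6 and rose in 1 of 19 (0 without osteoblast culture 2). Aldh1a1, which makes retinoic acid, was at 9.64, 9.52 and 9.30 in the cultures and had a tumour median at the floor (difference −5.10, SE 0.643, adjusted p = 9.37e-07). Sod3, the extracellular superoxide dismutase, was at 11.22, 11.25 and 11.11 in the cultures and 3.64 (tumour 330), 5.60 and 9.20 (tumour 188) in the tumours, a difference of −5.05 (SE 0.857, adjusted p = 4.63e-05). Gstt1 fell by 3.94 (SE 0.498, adjusted p = 1.01e-06).

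Mitosis genes did not separate the groups as a list, while the S phase list stood higher in most tumours. Of 18 mitosis genes, limma called 0 in either direction (median 0.27), while 2 were higher and 1 lower at an unadjusted p below 0.05. The rank-sum test also called 0, but with the same differences and 2-fold limit, which no member reached, so that count adds nothing. In limma, 1 rose without osteoblast culture 2 or without tumour 12, 87 or 179. Nusap1, the spindle protein nearest to the limit, differed by 0.97 and was above all cultures in 14 tumours. Top2a (−0.47) and Cdk1 (−0.68) were not called. S phase genes gave 3 rises (14.3%) and 1 fall (4.76%) in 21, with 1 rise without tumour 29 and 0 falls without osteoblast culture 2. At an unadjusted p below 0.05, limma gave 9 higher and 1 lower. The S phase median of 0.56 ran from 0.469 to 0.659 over the settings. The list level was 8.069 to 8.175 in the cultures and 8.093 (tumour 119), 8.50 and 9.415 (tumour 29) at the lowest, median and highest tumour. The regulators of the cycle showed larger differences, with 2 rises and 4 falls in 17. Mycn, a relative of Myc, was at the floor in all 3 cultures and between 4.82 (tumour 330) and 8.32 (tumour 182) in the tumours, with a median of 7.04 (at least 8.40-fold higher, adjusted p = 8.69e-05), but another probe set of Mycn gave 0.16. Cdkn2a, the locus of the inhibitors p16 and p19, rose by 2.30 (SE 0.426, adjusted p = 0.000131), and was 7.79 to 10.36 in the tumours against 7.16, 6.80 and 6.66.

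The neighbouring inhibitor gene Cdkn2b went the other way, from 9.66, 9.61 and 9.60 to 6.28 to 8.70 (difference −1.98, SE 0.366, adjusted p = 0.000123). Cdkn1c, an inhibitor expressed from the maternal copy, was at 10.35, 10.32 and 10.12 in the cultures and spread widely in the tumours. It was at the floor in tumour 119, had a median of 5.40 and was at 10.77 in tumour 176 (difference −4.36, SE 1.17, adjusted p = 0.00412). Ccnd2 fell by 3.69 (SE 0.757, adjusted p = 0.000376), with 6.82 in tumour 94 and 11.21 in tumour 87. The caveolar coat gene Cav1 was at 12.03, 12.05 and 12.00 in the cultures and 7.43 to 10.20 in the tumours (difference −3.34, SE 0.465, adjusted p = 3.88e-06), and the chromatin protein Hmga2 fell by 2.77, with 9.20 in tumour 330.

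Among the genes that differed most between tumours were keratin and muscle genes and Xist. Krt14, a keratin of basal epithelium, had an SD of 3.16 over the tumours. It was at the floor in 5 of them and at 12.45 in tumour 183 and 12.27 in tumour 188, and was not called (difference 2.27, adjusted p = 0.237). Xist, the RNA that coats the inactive X chromosome, came next with an SD of 3.05. It was at 11.91, 11.85 and 11.92 in the cultures and from 5.62 (tumour 176) to 13.05 (tumour 12) in the tumours, 9 of which were below all cultures and 6 above. Xist was not called, and the labels state no sex. Tumour 188 was also the highest for Krt6b (12.79, against a median of 5.71) and for the acute phase gene Saa3 (12.93, median 5.39), both named after their values were seen. Of the muscle genes, Tnnc2, Mylpf, Mb, Myh1 and Tnni2 had SDs between 2.70 and 2.84, were lowest in tumour 119 (tied at the floor with tumour 330 for Tnnc2 and Tnni2) and were highest in tumour 29 or 179. Tumour 330 was the lowest of the 15 for Wif1, Tbx1, Alpl, Ibsp, Dmp1 and Bmp2 and the highest for Igf2, Tagln, Cnn1, Igfbp2, Lgr5 and Cxcl12. Leaving tumour 330 out gave 936 higher and 1573 lower genes. The same 15 tumours had little spread in Hoxc10 (SD 0.031), Kera (0.17) and Sema3e (0.024), all near the floor, and in Col1a1 (0.057), which was near the top of the scale.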

How the data were processed

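RNA of 26 mouse samples was hybridised to 1-colour arrays after oligo-dT primed amplification and biotin labelling, per the labels' protocols. The deposited table holds 1 linear intensity per probe set and array. Array medians were 46.4 to 48.2 in the cultures and 50.4 to 58.8 in the tumours, every tumour above every culture. The 75th percentiles were 185.4 to 199.8 in the cultures and 178.7 to 201.3 in set 1. In set 2 they were 163.4 to 176.4, every tumour below every culture. What the authors used to scale the arrays is not given in the sources used here, and the main fit added no scaling between arrays. Intensities (0.497 to 21734) were raised to a floor at their 20th percentile (12.5) and taken to log2. Of 45101 probe sets, 64 are controls, 34958 carry 1 gene symbol, 932 several and 9211 none, and 34754 were updated by RefSeq gene id (GRCm38.p6). Probe sets above the overall median (52.6) in at least 3 arrays were kept (27344), and the brightest stood for its gene, giving 12887 genes.

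All 26 arrays in 4 groups were fitted with limma 3.58.1 in R 4.3.3 (lmFit, contrast of primary tumours minus osteoblasts, eBayes), and p-values were adjusted over all genes by Benjamini-Hochberg. The script was tested on simulated data. Precision is limited by the 3 osteoblast arrays. Numbers shared by tumours pair no osteoblast culture with a tumour. Figures were drawn with matplotlib 3.10.9.

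The comparison, its 57 gene lists (1054 genes, 879 measured) and the tests were chosen with earlier results of these data known. Genes named were drawn from the 15 largest rises and 15 largest falls among called genes whose groups do not overlap. Up to 6 called members of each list in each direction were added, and a fixed set of osteosarcoma and osteoblast genes. Any other measured list member could be given with its value. Of the fixed set, Rb1, Cdkn1a, Myc and Mki67 were measured, but their values are not given here. Alternatives changed the normalization, floor, filter, probe choice, samples, weights, block and test.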

Additional observations from a re-analysis of the deposited data

How the results depend on the processing

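The 848 higher and 1530 lower genes became 735 (without osteoblast culture 2) to 936 (without tumour 330) and 1349 (without culture 1) to 1573 (without tumour 330) when 1 array was left out. Over all gene-level settings they were 571 to 1166 and 1219 to 1687. Testing every kept probe set on its own gave 3011 higher and 3042 lower of 27308, since a gene can then count several times. With the tumour number as a random block (consensus correlation 0.352) the counts were 848 and 1526; 0 numbers link cultures and tumours, so the block pairs no culture with a tumour. The exact two-sided rank-sum test, used with the main differences and the same 2-fold limit, gave 838 and 1506. The smallest p it gave for any gene was 0.00123, over 816 choices. The share of calls that were higher was 40.4% after quantile normalization, 45.1% after 75th percentile scaling, 43.4% with set 1 and 30.7% with set 2. The all-gene median was 0.009 and 0.041 under those scalings. Of 286 called genes among the 292 named, 204 kept the call in every setting that measured them, and 56 lost it when some array was left out. Sox5 became −0.34 and Fdft1 0.058 when kept probe sets were averaged. The cause of these shifts was not tested. Genes near the floor give only a bound, and 3 cultures limit every contrast.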

Other observations

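A pair of gene groups was looked at after the values had been seen, and is given here as values with no test of the group. Of 22 measured imprinted genes, which are read from the maternal or the paternal copy only, 3 rose, 10 fell and 9 were not called, with a median difference of −1.01. Dlk1, a paternally read inhibitor of fat cell formation, was at 9.96, 10.37 and 10.19 in the cultures and 5.05 to 7.17 in the tumours (median 6.08), a difference of −3.99. Meg3 (−3.65, but 0.32 by another probe set) and Rian (−3.71), RNAs of the same cluster read from the maternal copy, fell too, and so did Ndn (−3.05), Mest (−2.29) and Grb10 (−4.06, but 0.77 by another probe set). The 3 that rose were Gatm (2.51), Kcnq1ot1 (2.30) and Airn (1.22). Mirg, a further RNA of the Dlk1 and Meg3 cluster, was not called (0.32, adjusted p = 0.289 by limma), and 10 tumours were above all cultures for it. Another probe set of Mirg gave −1.58.

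Retinoid genes, which make, bind or answer to retinoic acid, gave 2 rises, 9 falls and 9 not called in 20 measured, with a median of −0.99. The enzymes Aldh1a1 (−5.10), Aldh1a7 (−4.66), Aldh1a2 (−4.61) and Adh1 (−3.89) fell, as did the retinoid-induced genes Rarres1 (−3.98) and Rarres2 (−3.89, but −0.23 by another probe set). The binding protein Crabp1 (2.66) and the receptor Rarb (1.49) rose, Crabp1 losing its call without any 1 culture and Rarb without osteoblast culture 2 or 3.

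Promoters of mitosis genes and of cholesterol synthesis genes held CCAAT on either strand in 13 of 15 each (86.7%), against 37.4% of all promoters and 68.2% of those of the S phase list, although the mitosis list held no called gene and the cholesterol list held 6 that fell.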
